A study of Mus musculus with 9 samples.

Results

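Aminoacyl-tRNA synthetases are the enzymes that join each amino acid to its transfer RNA, the step that lets a ribosome read a codon as an amino acid. Animal cells keep 1 set of these enzymes in the cytosol and another in the mitochondria. Both sets are encoded in the nucleus, and the mitochondrial enzymes are imported. The genes described here are 36 listed mouse synthetases, 20 mainly cytosolic and 16 mitochondrial (the names that end in rs2). Members were taken from the symbols in the array's annotation, and each gene was represented by its brightest probe set. Of the 36, 35 were measured, 19 cytosolic and 16 mitochondrial, among 18193 genes with a named probe set. The methionine enzyme Mars was listed under its synonym Mars1, and the expression of the aspartate enzyme Dars was not analysed here. All 35 passed the filter on low signal and were tested among 12715 genes. The annotated genes Gars and Kars each encode the cytosolic and the mitochondrial form of their enzyme, so their values belong to both compartments.

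The cells are BC3H1, a mouse brain tumour line with muscle-like properties, and total RNA was hybridised to 9 Affymetrix arrays, 3 in each of 3 groups. The first group was a rapamycin-resistant line, RR1, grown out of BC3H1 by 6 months in 1 uM rapamycin and still kept in 1 uM when sampled. The second was sensitive BC3H1 cells given 100 nM rapamycin for 24 h, and the third was sensitive BC3H1 cells given the solvent DMSO for 24 h. RR1 is a single line; its line identity, its months under selection and the rapamycin in its medium all set it apart from the DMSO cells at once and cannot be told apart. Dose and length of exposure also differed between the 2 rapamycin groups. Whether replicate arrays represent independent cultures is not stated in the labels, and the p-values cover only array-to-array spread, possibly technical.

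Rapamycin inhibits the kinase mTOR complex 1, which matches protein synthesis and growth to the supply of amino acids. In other mammalian cells this kinase is known to raise the transcription factor ATF4, which binds the promoters of many cytosolic synthetase genes and of amino acid synthesis genes. Mitochondrial synthetases serve the few proteins encoded in mitochondrial DNA and are better known as part of the nuclear programme for mitochondria. The comparisons ask how the 2 sets of enzymes stood after a day of the drug in sensitive cells, and in cells that grow in it.

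The short DNA core bound by ATF4 with its partner proteins, TGATGNAA (TTNCATCA when read on the opposite strand), was looked up in the promoters, because the cytosolic members moved together. Promoter windows of 250 bases before and 50 bases after an annotated start were taken from RefSeq (build GRCm38.p6) and were used for 27 listed genes, 13 cytosolic (Dars among them) and 14 mitochondrial. The core was present on either strand in the windows of 5 of 13 cytosolic genes (38.5%) and 0 of 14 mitochondrial genes, against 1219 of 27025 genes in the whole table (4.51%). The 5 genes were Aars, Gars, Iars, Tars and Yars. The sequences of all 5 are shown 5′ to 3′ on each gene's sense strand, and capitals mark the core. Tars, Gars, Iars and Aars were among the larger falls after rapamycin in sensitive cells, and Yars fell less (-0.51 ± 0.15). No window was available for Cars, the largest fall, or for Vars. Of the measured cytosolic genes whose windows lacked the core, Farsb (-0.66 ± 0.07), Mars (-0.58 ± 0.07) and Sars (-0.55 ± 0.08) also fell. So did Kars (-0.47 ± 0.09), Farsa (-0.46 ± 0.08) and Eprs (-0.35 ± 0.09), while Qars rose (0.48 ± 0.08). The part of the core in these changes was not tested. The windows of Aars (chr8:111033684-111033783, + strand), Gars (chr6:55037925-55038000, + strand) and Tars (chr15:11399659-11399719, - strand) lie before the start, and those of Iars (chr13:49682127-49682154, + strand) and Yars (chr4:129189896-129189923, + strand) span it.
Aars: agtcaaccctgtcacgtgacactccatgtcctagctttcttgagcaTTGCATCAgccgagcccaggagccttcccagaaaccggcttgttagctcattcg
Gars: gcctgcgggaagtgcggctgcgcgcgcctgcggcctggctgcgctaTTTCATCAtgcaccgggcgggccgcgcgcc
Tars: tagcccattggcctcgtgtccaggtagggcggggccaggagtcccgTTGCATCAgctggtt
Iars: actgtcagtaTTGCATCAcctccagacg
Yars: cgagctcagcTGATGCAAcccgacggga
Iars2: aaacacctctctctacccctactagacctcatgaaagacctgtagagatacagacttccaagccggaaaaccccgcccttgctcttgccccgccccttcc

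The Iars2 window (chr1:185329402-185329501, - strand, the 100 bases before the start) is given for contrast, as that of a mitochondrial gene with no match. Aars held a second match downstream of its start. In Aars, Iars and Tars the letters on the sense strand were TTGCATCA, in Gars they were TTTCATCA, and Yars held the same letters on the opposite strand as TGATGCAA. The core was in 5 of 8 windows of the cytosolic genes commonly listed as ATF4 targets and in 0 of 5 windows of the others. Such lists may rest in part on this core, so the split is not separate evidence. A match describes these letters in these windows and is not evidence of binding here.

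After the authors' scaling, the median signal was 33.4 to 44.2 on 8 arrays and 66.0 on DMSO array 3, which stood apart. Correlations between arrays of a group, over genes, were 0.987 in the resistant, 0.976 to 0.980 in the sensitive rapamycin and 0.955 to 0.980 in the DMSO group. The gap between the 3′ and 5′ control probe sets for Actb, a sign of RNA quality, was on the log2 scale 0.33 ± 0.02 in the resistant, 0.19 ± 0.04 in the sensitive rapamycin and 0.17 ± 0.0079 in the DMSO arrays (SD, n = 3 each). For Gapdh the gap was -0.29 ± 0.04, -0.36 ± 0.04 and -0.31 ± 0.02 in the same order. The part of these gaps in the results was not tested. Smooth muscle markers summed to 7769 to 9558 in resistant cells, 28130 to 28560 in sensitive rapamycin cells and 22940 to 31010 in DMSO cells. All 5 that were tested were lower in resistant than in DMSO cells, most of all Actg2 and Cnn1 (log2 changes -6.54 and -4.71). Myh11 was below the filter on low signal. Skeletal muscle markers summed to 665 to 768 in resistant, 626 to 788 in sensitive rapamycin and 853 to 1048 in DMSO cells. Within that sum, resistant cells were higher than DMSO cells in Tnnt1, Myog and Ckm (log2 changes 3.49, 2.37 and 1.15) and lower in Chrna1 and Acta1 (-4.22 and -1.95). Acta1 was also lower after rapamycin in sensitive cells (-1.06). Markers of astrocytes, neurons, oligodendrocytes, macrophages, endothelium and epithelium summed to at most 529 on any array. Of these, Mbp, a myelin gene, was lower in resistant than in DMSO cells (log2 change -2.39 ± 0.33), as was the neuronal tubulin Tubb3 (-0.59 ± 0.19). The epithelial marker Epcam was lower in sensitive rapamycin than in DMSO cells (-1.21 ± 0.38), and the glial markers Mog, Olig2, S100b and Slc1a2 were below the filter on low signal. The part of the markers in the results was not tested. In bulk RNA, fewer cells with a transcript and less transcript per cell cannot be told apart.

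Signals are linear array intensities, log2 changes are differences of log2(signal + 16), and the ± after a change is its standard error. A gene was called at an adjusted p under 0.05 (limma over all 12715 genes, Benjamini-Hochberg). Signals of cytosolic members ran from 279 to 9193 and those of mitochondrial members from 20.4 to 1029. Standard errors were larger for the mitochondrial members, 0.10 to 0.38, than for the cytosolic members, 0.07 to 0.15. A mitochondrial member therefore needed a larger change to pass, and counts of calls in the 2 lists are not read against each other.

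**Figure D1:**
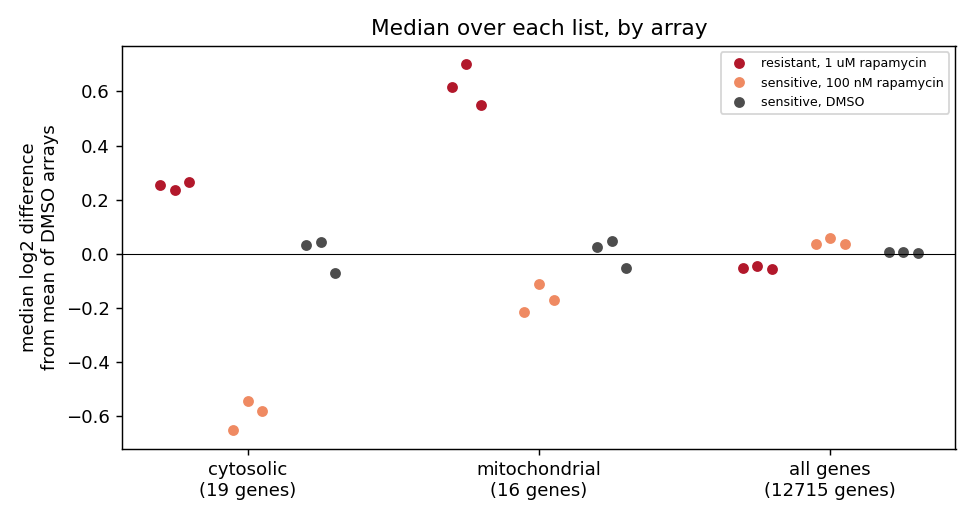
Median over the 19 cytosolic members, the 16 mitochondrial members and all 12715 genes of each array's log2(signal + 16) minus the mean of the DMSO arrays; each point is 1 array. The cytosolic medians lie between 0.24 and 0.26 on resistant arrays and between -0.65 and -0.54 on sensitive rapamycin arrays. The mitochondrial medians lie between 0.55 and 0.70 on resistant arrays and between -0.21 and -0.11 on sensitive rapamycin arrays, while the median over all genes stays within 0.06 of 0.

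After 24 h of rapamycin in sensitive cells nearly every cytosolic synthetase was lower. Of 19 cytosolic members 18 fell and 1, the glutamine enzyme Qars, rose, where 35.6% of all genes tested were called, 15.2% lower and 20.4% higher. The median log2 change of the cytosolic members was -0.58, against 0.03 over all genes. Of 16 mitochondrial members 3 fell, 2 rose and 11 did not pass, with a median of -0.24. These shares of falls and rises were near those of all genes.

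Cars, the cysteine enzyme, changed most of the cytosolic members. Its signals were 574, 470 and 597 in sensitive rapamycin cells, against 1263, 1194 and 1200 in DMSO cells (log2 change -1.14 ± 0.09, adjusted p = 3.54e-08). The rapamycin arrays lay far below the DMSO arrays, at 546.8 ± 67.7 against 1219 ± 38.4 (SD, n = 3 each). Tars, which charges threonine, had 1098, 1243 and 1286 in rapamycin cells, against 2430, 2461 and 2310 in DMSO cells (-0.98 ± 0.08, adjusted p = 1.53e-08). Gars, the glycine enzyme of both compartments, had 2048, 2140 and 2099 in rapamycin cells, against 3902, 3905 and 3281 in DMSO cells (-0.81 ± 0.08). Iars, the isoleucine enzyme, had 779, 646 and 858 in rapamycin cells, against 1289, 1271 and 1370 in DMSO cells (-0.78 ± 0.09). For none of these genes did the groups overlap.

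The other 14 cytosolic members that fell had changes between those of Vars (-0.74 ± 0.09) and Eprs (-0.35 ± 0.09). Aars (alanine) changed by -0.72 ± 0.07. Hars (histidine) and both subunits of the phenylalanine enzyme, Farsb and Farsa, changed by -0.66 ± 0.08, -0.66 ± 0.07 and -0.46 ± 0.08. Farsa rests on its brightest probe set: its 3 dimmer ones gave 1.05 ± 0.34, 1.05 ± 0.47 and 1.35 ± 0.36 (adjusted p = 0.0268, 0.102 and 0.00896), and the mean of the 4 was higher (0.75, adjusted p = 0.00492). Nars (asparagine) changed by -0.62 ± 0.08, Mars (methionine) by -0.58 ± 0.07 and Lars (leucine) by -0.57 ± 0.07. Sars (serine), Rars (arginine) and Yars (tyrosine) changed by -0.55 ± 0.08, -0.52 ± 0.07 and -0.51 ± 0.15. Wars (tryptophan) and Kars (lysine) closed the range at -0.48 ± 0.11 and -0.47 ± 0.09. In 17 of the 19 members every rapamycin array lay below every DMSO array, where 18.1% of all genes did so and 25.1% lay above, and in Yars the groups overlapped. The weakest calls were those of Eprs, which carries both the glutamate and the proline enzyme, and Yars. Eprs lost its call without the second rapamycin array (adjusted p = 0.051), and Yars without the first rapamycin array (0.0704) or the first DMSO array (0.0528). The dimmer Eprs probe sets gave -0.29, -0.05 and 0.04 (adjusted p = 0.0234, 0.833 and 0.96). With its probe sets averaged Eprs was not called (-0.16, adjusted p = 0.343). Over 18 alternative settings the adjusted p ran from 0.00207 to 0.343 for Eprs and from 0.000945 to 0.0704 for Yars.

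Qars went the other way. Its signals were 2113, 2431 and 2453 in rapamycin cells, against 1851, 1610 and 1543 in DMSO cells (0.48 ± 0.08, adjusted p = 0.00022), and the groups did not overlap. Qars has no mitochondrial counterpart in the list, because mitochondria make glutaminyl-tRNA from glutamyl-tRNA by amidation. Of its 4 probe sets, another bright one rose by 1.02 ± 0.13, and the other two, at -0.08 and 0.44, did not pass (adjusted p = 0.833 and 0.364). Its rise was called under all 18 alternatives (adjusted p 6.1e-05 to 0.00912).

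Among the mitochondrial members, Nars2 and Yars2 fell and Iars2 and Hars2 rose. Nars2, the mitochondrial asparagine enzyme, had 150, 98.7 and 141 in rapamycin cells, against 233, 224 and 191 in DMSO cells (-0.68 ± 0.17, adjusted p = 0.00364). Yars2, for tyrosine, had 153, 143 and 163 in rapamycin cells, against 229, 241 and 257 in DMSO cells (-0.61 ± 0.12, adjusted p = 0.000625). Their cytosolic partners Nars and Yars changed by -0.62 and -0.51. Iars2, for isoleucine, had 434, 399 and 366 in rapamycin cells, against 275, 245 and 264 in DMSO cells (0.58 ± 0.11, adjusted p = 0.000328). Hars2, for histidine, had 330, 382 and 327 in rapamycin cells, against 250, 231 and 222 in DMSO cells (0.53 ± 0.12, adjusted p = 0.00237). All rapamycin arrays of these 4 genes lay outside the DMSO range. The rises of Iars2 and Hars2 rest on 1 probe set each: the dimmer probe set gave -0.40 for Iars2 (adjusted p = 0.422) and 0.13 for Hars2 (adjusted p = 0.771). With the mean of the probe sets the calls ended, at 0.09 (adjusted p = 0.744, range 0.000288 to 0.744 over alternatives) and 0.33 (adjusted p = 0.0844, range 0.00176 to 0.0844).

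Tars2, the mitochondrial threonine enzyme, also fell (-0.37 ± 0.13, adjusted p = 0.0301), with overlapping groups. Its call was lost without rapamycin array 1 or 3 (adjusted p = 0.156 and 0.0832) or DMSO array 1 or 2 (0.0907 and 0.137), within a range of 0.00337 to 0.156 over alternatives. The 11 members that did not pass ran from -0.41 in Vars2 to 0.16 in Aars2. Of these, Rars2 passed without the first rapamycin array (-0.48, adjusted p = 0.00369, range 0.00369 to 0.334). It also passed with a filter at the 60th percentile (0.0468), 75th percentile centring (0.0395), quantile normalization (0.0481) or a replicate block (0.0493). Cars2 passed without the second rapamycin array (-0.49, adjusted p = 0.0279, range 0.0279 to 0.233). That centring (0.0477), quantile normalization (0.044) and eBayes without a trend (0.049) gave the same call for Cars2. Lars2 passed when its probe sets were averaged (-0.40, against -0.11 for the brightest, adjusted p = 0.0333, range 0.0333 to 0.664), and Pars2 under quantile normalization (adjusted p = 0.0493, range 0.0493 to 0.223). Vars2 passed without DMSO array 3 (-0.85, adjusted p = 0.0232, range 0.0232 to 0.941). Without that array, 18 cytosolic members fell and 1 rose, and 4 mitochondrial members fell and 2 rose.

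**Figure D2:**
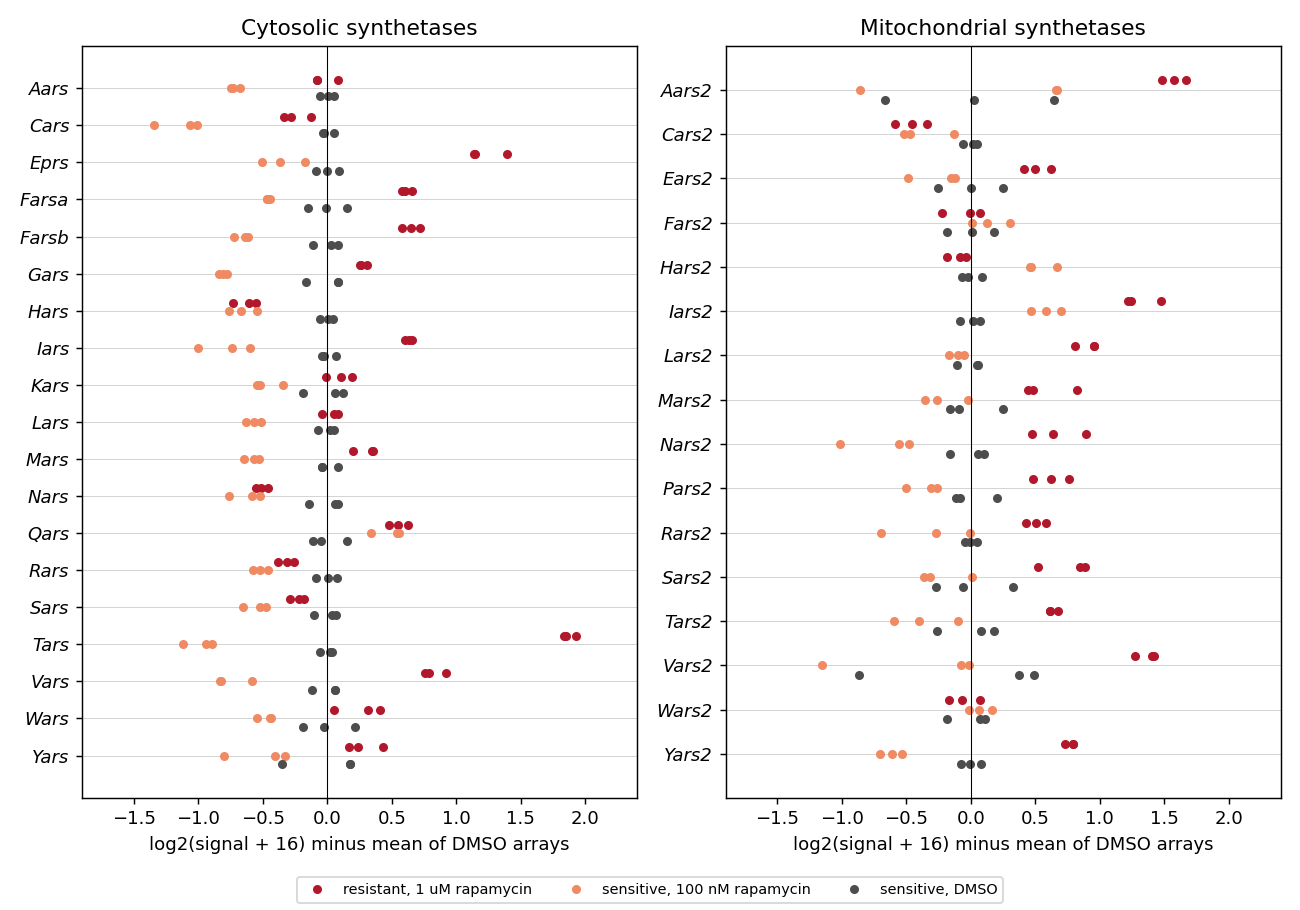
Each array's log2(signal + 16) minus the mean of the 3 DMSO arrays, for the 19 cytosolic members on the left and the 16 mitochondrial members on the right; each point is 1 array. In the left panel the sensitive rapamycin points lie left of 0 for every gene but Qars, and in the right panel the resistant points of 11 called genes lie right of the DMSO points.

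Relative to sensitive DMSO cells, the resistant line had higher levels of most mitochondrial synthetases and of 9 cytosolic ones. Of 16 mitochondrial members 11 rose, 1 fell and 4 did not pass, where 51.8% of all genes were called, 25.9% higher and 25.8% lower. Of 19 cytosolic members 9 rose, 5 fell and 5 did not pass, and the share that fell was close to that of all genes. The median log2 change was 0.63 in the mitochondrial and 0.27 in the cytosolic members, against -0.07 over all genes. Groups did not overlap in 12 mitochondrial and 9 cytosolic members that were higher and in 1 and 5 that were lower, against 28.9% and 29.6% of all genes.

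The threonine enzyme Tars was the largest change of all 35 genes. Its signals were 8701, 9193 and 8621 in resistant cells, against 2430, 2461 and 2310 in DMSO cells (1.87 ± 0.08, adjusted p = 1.56e-12). Eprs had 2853, 2399 and 2389 in resistant cells, against 1077, 1146 and 1011 in DMSO cells (1.23 ± 0.09, adjusted p = 7.19e-09). Vars, the valine enzyme, had 1783, 1628 and 1590 in resistant cells, against 975, 858 and 975 in DMSO cells (0.82 ± 0.09). Resistant and DMSO arrays were fully apart for these genes. Farsb had 3468, 3653 and 3823 in resistant cells, against 2371, 2455 and 2144 in DMSO cells (0.65 ± 0.07). Iars and Farsa rose by similar amounts (0.63 ± 0.09 and 0.61 ± 0.08), Qars by 0.55 ± 0.08, Mars by 0.30 ± 0.07 and Gars by 0.27 ± 0.08. Gars was at 0.13 under quantile normalization (adjusted p = 0.0355), and Farsa at 1.00 when its probe sets were averaged. Iars was called under all 18 alternatives, although its dimmer probe set gave 0.29 (adjusted p = 0.0583).

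The 5 cytosolic members that fell were lower in the resistant line than in DMSO cells. Hars had 1885, 2060 and 2142 in resistant cells, against 3159, 3239 and 3025 in DMSO cells (-0.63 ± 0.08, adjusted p = 2.24e-06). Nars had 3647, 3750 and 3878 in resistant cells, against 5573, 5675 and 4842 in DMSO cells (-0.51 ± 0.08, adjusted p = 6.19e-05). Rars had 3026, 3136 and 2870 in resistant cells, against 3778, 3958 and 3536 in DMSO cells (-0.32 ± 0.07, adjusted p = 0.00133). These 3 calls held under all 18 alternatives. Cars (1002, 1113 and 962 in resistant cells, against 1263, 1194 and 1200 in DMSO cells) and Sars (2938, 2867 and 2730 in resistant cells, against 3496, 3418 and 3104 in DMSO cells) changed by -0.25 ± 0.09 and -0.23 ± 0.08. Cars lost its call without resistant array 1 or 3 (adjusted p = 0.0911 and 0.134) or the first or second DMSO array (0.0969 and 0.0542). Sars lost it without resistant array 3 (0.0796) or the first or second DMSO array (0.0724 and 0.053). With arrays centred on their 75th percentile neither was called (0.225 and 0.245), and over alternatives the adjusted p ran from 0.0147 to 0.225 for Cars and from 0.000122 to 0.245 for Sars.

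Aars, Lars, Kars, Wars and Yars did not pass, with changes between -0.03 and 0.28. Wars passed without the second resistant array (0.36, adjusted p = 0.0159) or DMSO array 3 (0.36, adjusted p = 0.00864), within a range of 0.00864 to 0.25. It also passed with 75th percentile centring (0.35, adjusted p = 0.00879) and with a replicate block (adjusted p = 0.0472). The dimmer Wars probe sets gave 0.43, 0.15 and -0.02 (adjusted p = 0.00179, 0.479 and 0.948). Yars passed with 75th percentile centring (0.37, adjusted p = 0.0328, range 0.0328 to 0.564), and Aars was called lower under quantile normalization (-0.15, adjusted p = 0.0458, range 0.0458 to 0.996). The dimmer of the 2 Aars probe sets was called lower at -0.27 (adjusted p = 0.00975), while the brighter gave -0.03.

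Aars2, the mitochondrial alanine enzyme, led the mitochondrial rises. Its signals were 169, 181 and 193 in resistant cells, against 25.6, 87.1 and 51.1 in DMSO cells (1.58 ± 0.38, adjusted p = 0.00197). Vars2, for valine, had 216, 239 and 240 in resistant cells, against 119, 108 and 36.6 in DMSO cells (1.37 ± 0.34, adjusted p = 0.00249). Both are dim genes whose DMSO arrays scattered widely, yet every resistant array lay above them. Iars2 had 639, 752 and 628 in resistant cells, against 275, 245 and 264 in DMSO cells (1.31 ± 0.11, adjusted p = 1.46e-08). Lars2, for leucine, had 558, 617 and 620 in resistant cells, against 325, 322 and 288 in DMSO cells (0.91 ± 0.10, adjusted p = 8.2e-07). For both genes the resistant arrays lay above all DMSO arrays. Averaged over probe sets, Iars2 was at 0.56 and Lars2 at 0.57 (adjusted p = 0.0165 and 0.00243), and their dimmer tested probe sets gave -0.19 and 0.23 (adjusted p = 0.694 and 0.485). Yars2, Sars2 (serine), Nars2, Tars2, Pars2 (proline), Ears2 (glutamate) and Rars2 (arginine) rose by 0.77 ± 0.12, 0.75 ± 0.23, 0.67 ± 0.17, 0.63 ± 0.13, 0.62 ± 0.15, 0.51 ± 0.21 and 0.50 ± 0.13.

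Cars2, the mitochondrial cysteine enzyme, was the 1 mitochondrial member that fell. It had 166, 182 and 151 in resistant cells, against 224, 243 and 238 in DMSO cells (-0.46 ± 0.15, adjusted p = 0.0172), with no overlap. Its call was lost without resistant array 3 (adjusted p = 0.0742), with 75th percentile centring (0.0551) or under quantile normalization (0.0694). It was also lost when its probe sets were averaged (-0.29, adjusted p = 0.207, range 0.0129 to 0.207). The dimmer Cars2 probe sets gave -0.04 and -0.36 (adjusted p = 0.887 and 0.503). Sars2 lost its call without the second resistant array (0.0539, range 0.00396 to 0.0539). The call of Ears2 (adjusted p = 0.0488) was lost without any 1 resistant array (0.0797 to 0.153), the first or second DMSO array (0.165 and 0.0832) or the first or second sensitive rapamycin array (0.0567 and 0.0519), within a range of 0.00688 to 0.236. Averaged over its probe sets, Nars2 was not called (0.16, adjusted p = 0.589, range 0.000866 to 0.589). Hars2, Fars2 (phenylalanine) and Wars2 (tryptophan) did not pass and lay between -0.10 and -0.05. Mars2 (methionine) was dim and at 0.59 ± 0.32 did not pass (adjusted p = 0.145), although its groups did not overlap. It passed under quantile normalization (0.83, adjusted p = 0.0425) and without a trend in eBayes (0.0149), within a range of 0.0149 to 0.38.

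**Figure D3:**
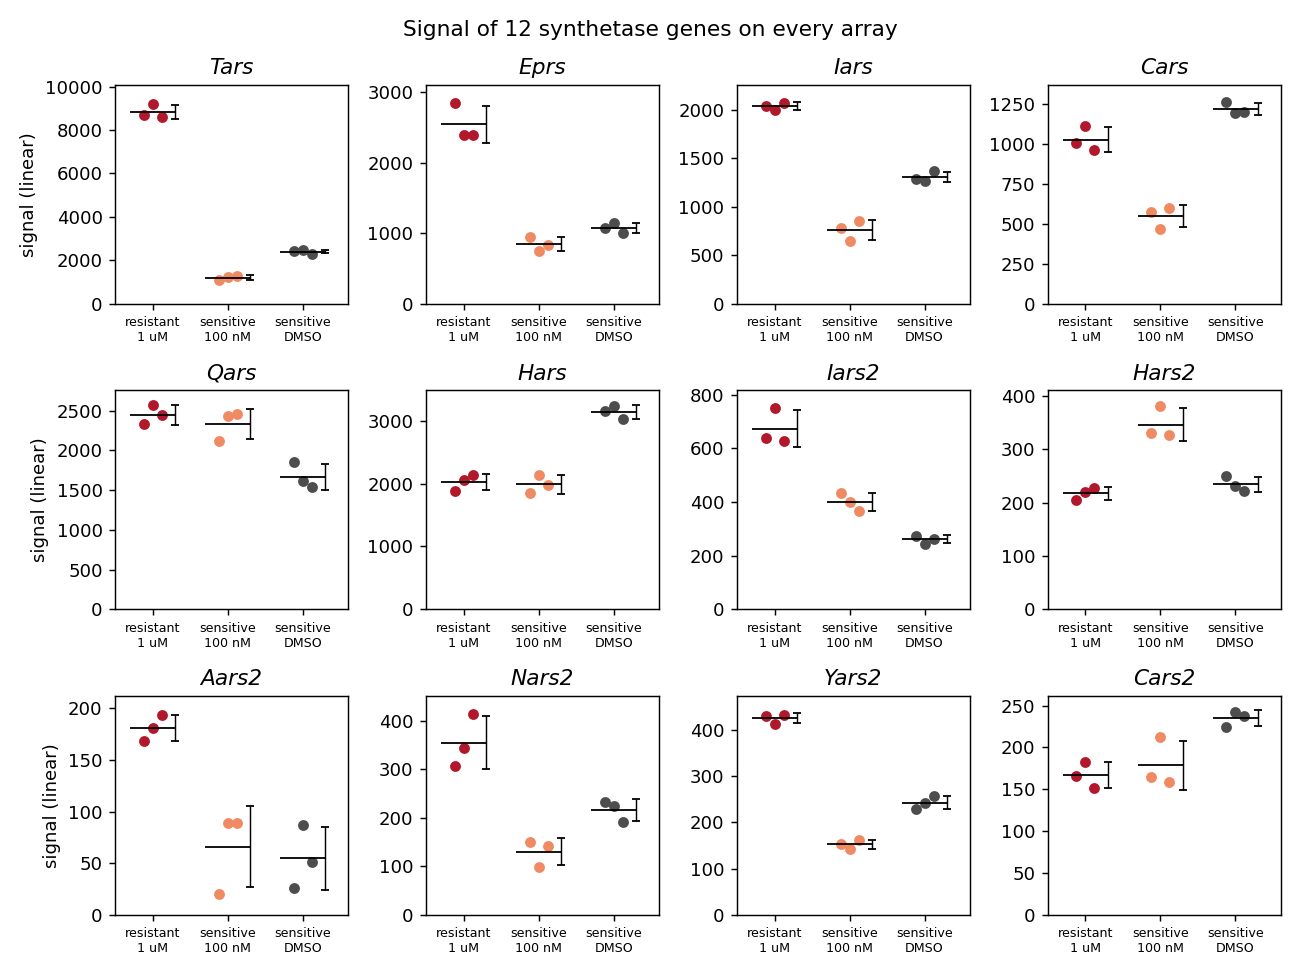
Linear signal of 12 members on every array, 6 cytosolic and 6 mitochondrial; points are arrays, the horizontal line is the mean of 3 and the bar its SD. Tars is near 8838 in resistant cells, 1209 in sensitive rapamycin cells and 2400 in DMSO cells, Hars is at 2029 in resistant and 1988 in sensitive rapamycin cells against 3141 in DMSO cells, and Aars2 scatters widely in both groups of sensitive cells.

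Set against sensitive cells given rapamycin, most synthetases of both sets were higher in the resistant cells, with the differences in dose, time and line named above. Of 19 cytosolic members 16 rose and 3 did not pass, and of 16 mitochondrial members 12 rose, 1 fell and 3 did not pass, where 56.5% of all genes were called, 26.4% higher and 30.1% lower. The median log2 change was 0.79 in the cytosolic and 0.90 in the mitochondrial members, against -0.08 over all genes. This comparison shares the resistant arrays with the second and the sensitive rapamycin arrays with the first, so its values follow from both and add no separate evidence.

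Tars stood at 8838 ± 310 in resistant cells and 1209 ± 98.7 in sensitive rapamycin cells (SD, n = 3 each), a log2 change of 2.86 ± 0.08 (adjusted p = 4.26e-15). Eprs, whose resistant values stand above, had 954, 753 and 830 in sensitive rapamycin cells (1.58 ± 0.09), and Vars had 522, 619 and 518 (1.57 ± 0.09). Iars had 2044, 1994 and 2074 in resistant cells, against 779, 646 and 858 in sensitive rapamycin cells (1.41 ± 0.09). The groups were fully apart for these 4 genes. Farsb, Gars and Farsa also rose by more than 1 on the log2 scale (1.31 ± 0.07, 1.08 ± 0.08 and 1.07 ± 0.08), the last not called when its probe sets were averaged (0.26, adjusted p = 0.26). Hars (0.03 ± 0.08), Qars (0.07 ± 0.08) and Nars (0.11 ± 0.08) did not pass (adjusted p = 0.776, 0.518 and 0.271). Nars passed with arrays centred on the 75th percentile (0.25, adjusted p = 0.0489) or when its probe sets were averaged (0.21, adjusted p = 0.0441), within a range of 0.0441 to 0.923. Rars had the smallest rise (0.20 ± 0.07, adjusted p = 0.0257). It was not called without resistant array 1 or 2 (0.0685 and 0.118), sensitive rapamycin array 2 or 3 (0.0594 and 0.0984), or under quantile normalization (0.10, adjusted p = 0.154, range 0.00354 to 0.154).

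Vars2 and Aars2 rose most of the mitochondrial members (1.78 ± 0.34 and 1.42 ± 0.38). Vars2 had 79.0, 27.2 and 75.1 in sensitive rapamycin cells, and Aars2 had 20.4, 89.1 and 88.6, all below the resistant values given above. Yars2 had 430, 412 and 432 in resistant cells, against 153, 143 and 163 in sensitive rapamycin cells (1.39 ± 0.12, adjusted p = 1.83e-08). Nars2 had 306, 345 and 414 in resistant cells, against 150, 98.7 and 141 in sensitive rapamycin cells (1.35 ± 0.17). Neither gene's groups overlapped. Hars2 was the 1 member that fell, with 204, 220 and 228 in resistant cells, against 330, 382 and 327 in sensitive rapamycin cells (-0.63 ± 0.12, adjusted p = 0.000237). Cars2, Wars2 and Fars2 did not pass, between -0.20 and -0.09. Mars2 (0.80 ± 0.32, adjusted p = 0.045) lost its call without any 1 resistant array (0.0828 to 0.184) or without sensitive rapamycin array 1 or 3 (0.107 and 0.0941), within a range of 0.00262 to 0.184. Centring arrays on the 75th percentile moved the median of all genes in this comparison to 0.05, and 12 mitochondrial members were still called higher under it.

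**Figure D4:**
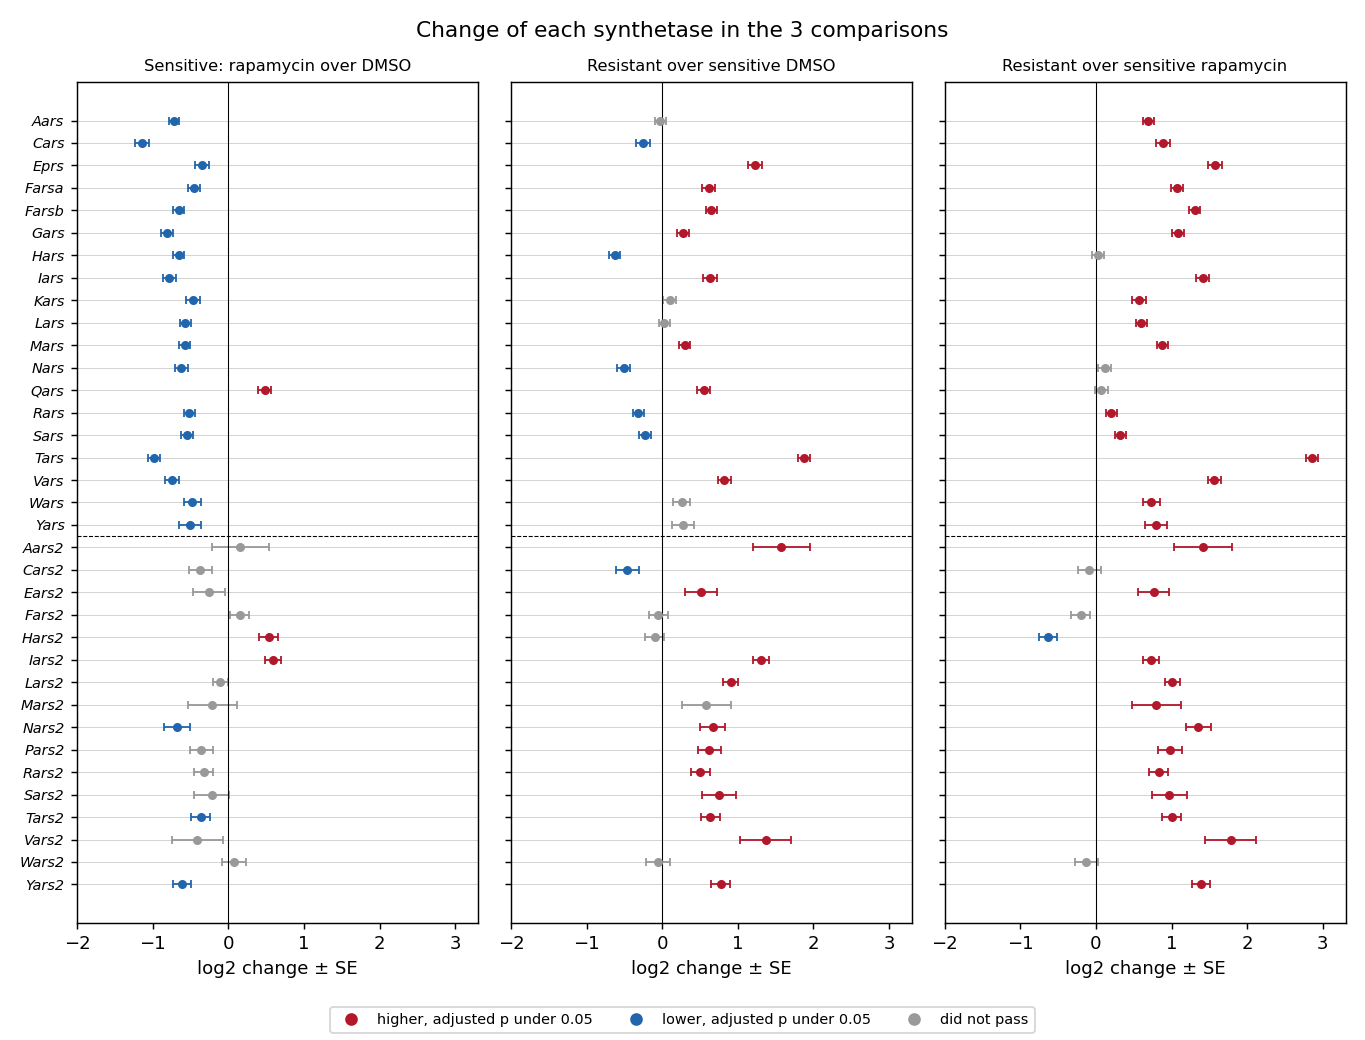
Log2 change ± standard error of the 35 members in the 3 comparisons, cytosolic genes above the dashed line and mitochondrial genes below it; red and blue mark genes called higher and lower, and grey marks genes that did not pass. Cytosolic genes other than Qars lie between -1.14 and -0.35 in the left panel, and Tars reaches 1.87 and 2.86 in the other two.

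The enzymes form 16 pairs that serve the same amino acid in the 2 compartments, with Eprs in 2 of them. The difference within a pair, cytosolic minus mitochondrial change, was measured on each array. In sensitive cells given rapamycin against DMSO, the cytosolic gene had the more negative change in 13 of 16 pairs, with a median difference of -0.42. The widest differences were in Iars/Iars2 (-1.37) and Hars/Hars2 (-1.19), whose members moved in opposite directions. The rises of Iars2 and Hars2 rest on 1 probe set each and were not called with probe sets averaged (0.09 and 0.33). Farsa, here and below, rests on its brightest probe set, and rose after rapamycin when its probe sets were averaged (0.75). The arrays of the groups did not overlap in this difference in 8 pairs, those of Iars, Hars, Cars, Farsa, Lars, Mars, Tars and Wars. With 3 arrays against 3, such separation always gives an exact permutation p = 0.1 (two-sided), so the p adds nothing to it. How often other pairs of genes are separated in this way was not tested. In the other 3 pairs, Nars/Nars2, Yars/Yars2 and Eprs/Pars2, the difference was 0.06, 0.10 and 0.01, with exact permutation p of 0.9, 0.6 and 1.

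In the resistant line against DMSO cells, the cytosolic gene had the lower change in 10 of 16 pairs, with a median difference of -0.51. Aars/Aars2 (-1.60), Nars/Nars2 (-1.18) and Sars/Sars2 (-0.98) were the widest in that direction, and Tars/Tars2 (1.24) and Eprs/Ears2 (0.71) in the other. Between resistant and sensitive rapamycin cells the cytosolic gene had the higher change in 9 pairs and the lower in 7, with a median of 0.34, led by Tars/Tars2 (1.86) and Farsa/Fars2 (1.27) and, in the other direction, by Nars/Nars2 (-1.24). With 3 arrays against 3, the smallest possible p is 0.1, so no pair could pass, and the smallest value adjusted over the 48 tests was 0.141. The median between the 2 rapamycin groups was 0.17 with a pseudocount of 1 and 0.49 with 64.

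**Figure D5:**
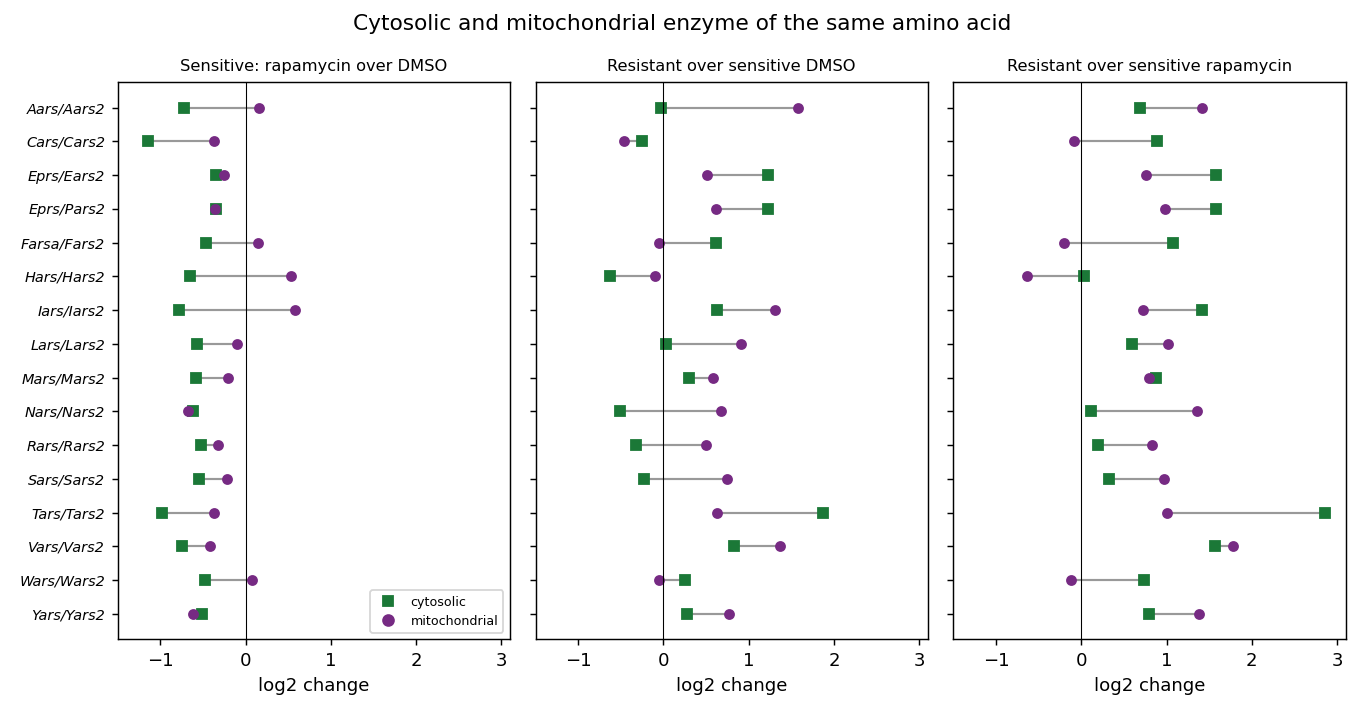
Log2 changes of the cytosolic gene (square) and the mitochondrial gene (circle) for the same amino acid in 16 pairs and 3 comparisons, joined by a line. The squares lie left of the circles in 13 pairs in the left panel, in 10 in the middle and in 7 in the right panel.

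Of the listed cytosolic enzymes, 8 are held in the multisynthetase complex, a particle in which the scaffold proteins Aimp1, Aimp2 and Eef1e1 bind the enzymes together. Of its 7 measured enzymes, 6 fell and Qars rose after rapamycin in sensitive cells (median -0.52), and all 12 enzymes outside the complex fell (median -0.66), where 15.2% of all genes fell and 20.4% rose. In resistant against DMSO cells the complex had 4 higher and 1 lower (median 0.30), and the other enzymes 5 higher and 4 lower (median 0.27), where 25.9% of all genes were higher and 25.8% lower. The scaffolds did not move as one. Aimp2 had 1228, 1301 and 1130 in sensitive rapamycin cells, against 2421, 2439 and 2169 in DMSO cells (-0.93 ± 0.08), and 2458 ± 21.3 in resistant cells. Eef1e1 fell after rapamycin (-0.87 ± 0.09) and was higher in resistant than in DMSO cells (1.13 ± 0.09), at 2845 ± 142, 701.3 ± 60.4 and 1293 ± 121 in resistant, sensitive rapamycin and DMSO cells. Aimp1 changed by 0.16 ± 0.09 after rapamycin (adjusted p = 0.175) and rose by 0.35 ± 0.09 in resistant against DMSO cells.

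All 12 cytosolic genes commonly listed as ATF4 targets fell after rapamycin in sensitive cells (median -0.60). Of all genes, 15.2% were lower and 20.4% higher in that comparison. Vars was placed in neither list and changed by -0.74, 0.82 and 1.57 in the 3 comparisons. Of the 6 measured genes listed as not ATF4 targets, 5 fell and Qars rose (median -0.49). In resistant against DMSO cells the listed genes had 5 higher and 3 lower (median 0.27), and the 6 others 3 higher and 2 lower (median 0.32). Of all genes, 25.9% were higher and 25.8% lower there, so the share of listed genes that fell was near that of all genes. In resistant against sensitive rapamycin cells 11 of the 12 listed genes (median 0.84) and 4 of the 6 others (median 0.38) rose, where 26.4% of all genes did. Class I and class II enzymes, which have unrelated catalytic folds, were also set side by side, without Eprs, which holds both: after rapamycin 8 of 9 cytosolic class I genes fell (median -0.57) and 9 of 9 class II genes fell (median -0.66). The mitochondrial medians were 0.59 for class I and 0.63 for class II in resistant against DMSO cells.

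Of 8 regulators listed for these genes, Atf4 itself had 2333, 2595 and 2708 in sensitive rapamycin cells, against 4346, 4372 and 4378 in DMSO cells (-0.78 ± 0.08, adjusted p = 3.98e-07). In resistant cells Atf4 averaged 5371 ± 320, above the DMSO level (0.30 ± 0.08, adjusted p = 0.00346). After rapamycin 4 of the 8 fell, among them Nrf1, a factor for nuclear genes of mitochondria (-0.71 ± 0.18), where 15.2% of all genes fell. The 2 that rose, where 20.4% of all genes did, were Eif2ak4, the kinase that senses uncharged tRNA (0.74 ± 0.16), and the growth regulator Myc (0.57 ± 0.13). In resistant against DMSO cells 6 rose and none fell, where 25.9% of all genes rose and 25.8% fell, with Myc at 3.81 ± 0.13 and Ppargc1b, a coactivator for mitochondrial genes, at 2.18 ± 0.28. Ppargc1b had 264, 228 and 228 in resistant cells, against 67.2, 41.2 and 21.8 in DMSO cells. These transcripts moved in the same comparisons as the synthetases, and their part in the results was not tested.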

How the data were processed

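The authors deposited linear intensities for each probe set on each array. GCOS 1.4 is named per the submitters' processing notes, and how probes were summarised is not given in the sources used here. All 9 columns had a trimmed mean of 250 (2% left out at either end), a common scaling. The platform table has 45101 probe sets: 34945 have 1 gene symbol, 932 several, 9160 none, and 64 are controls. A gene was named only from probe sets with 1 symbol. Values were analysed as log2(signal + 16), as deposited. Probe sets above the 40th percentile of mean log2 signal (a signal of about 22.2) were kept, with the brightest per gene. All 9 arrays entered 1 limma 3.58.1 fit (R 4.3.3; lmFit, eBayes with a trend), with p-values adjusted over 12715 genes in each comparison. The fit was tested on simulated data. Groups came from sample titles. The number of arrays limits precision. Alternatives were other pseudocounts, filters, scalings and probe set rules, no trend, a replicate block and leaving out each array. Values on every array are given for the 4 called members of each set with the largest change per comparison and for called members that went against their set; the other lists are named by up to 3 called genes. Members and lists were chosen with earlier results of these data known. Promoter sequences are from RefSeq (GRCm38.p6). Some probe sets may also match related transcripts, among them those used for Aars, Iars, Farsb and Wars.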

Additional observations from a re-analysis of the deposited data

How the results depend on the processing

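Counts of called members mostly stayed within 1.5 times of those reported. Exceptions for sensitive rapamycin against DMSO cells were 5 mitochondrial falls with arrays centred on the 75th percentile, and 6 falls and 8 calls in all under quantile normalization. When probe sets were averaged per gene there were 2 cytosolic rises, since Farsa turned to 0.75 (adjusted p = 0.00492; its 3 dim probe sets gave 1.05 to 1.35), and 0 mitochondrial rises. For resistant against DMSO cells, 3 cytosolic members were lower with 75th percentile centring and without a trend in eBayes, and 0 mitochondrial members with that centring, quantile normalization or mean probe sets. Leaving out 1 array gave 3 to 5 cytosolic and 0 to 1 mitochondrial falls there. The median pair difference ran from -0.50 to -0.40 for sensitive rapamycin against DMSO cells and from -0.58 to -0.34 for resistant against DMSO cells when 1 array was left out, the extremes coming without DMSO array 2 and DMSO array 3. For resistant against DMSO cells it was -0.32 with a pseudocount of 64, -0.67 under quantile normalization and -0.31 with mean probe sets. For resistant against sensitive rapamycin cells it was 0.17 with a pseudocount of 1, 0.49 with 64 and 0.12 under quantile normalization. Of 1887 values of single members under 18 alternatives, 1806 kept their call or stayed uncalled, 58 lost a call and 22 gained one. The remaining 1, Farsa with mean probe sets, was called in the other direction. Some uncalled changes near 0 also changed sign between alternatives, such as Lars in resistant against DMSO cells (-0.06 to 0.13). The causes were not tested.

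Same-numbered arrays of different groups did not deviate together (r from -0.08 to 0.02 over genes). No shared effect of the replicate number was visible, which does not settle whether same-numbered arrays were handled together. With the replicate number as a block, 18 cytosolic members fell and 1 rose after rapamycin, and of 105 member values 2 lost and 2 gained a call. Depth of signal limits the mitochondrial members most: Mars2, Aars2 and Vars2 had the largest standard errors.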

Other observations

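Partners of the mitochondrial enzymes were measured as a list of 16 genes, of which 15 were tested. After rapamycin in sensitive cells 2 of them fell and 0 rose, a share of falls near the 15.2% of all genes. The falls were in the elongation factors Tsfm (-0.66 ± 0.12, 215.3 ± 37.6 in rapamycin cells against 346.6 ± 9.85 in DMSO cells) and Gfm1 (-0.36 ± 0.07). In resistant against DMSO cells 8 rose and 0 fell. Mto1, an enzyme that modifies mitochondrial tRNA, had 717, 737 and 718 in resistant cells, against 301, 296 and 244 in DMSO cells (1.33 ± 0.11, adjusted p = 1.27e-08). Gatb, a subunit of the amidase that makes mitochondrial glutaminyl-tRNA, rose by 1.06 ± 0.33 and the elongation factor Gfm2 by 0.81 ± 0.14. Where 25.9% of all genes rose in that comparison, 8 of 15 partners did so, with a median log2 change of 0.34.

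Of 7 tested genes for tRNA handling and proofreading, Xpot, the exportin of tRNA from the nucleus, fell after rapamycin (1138 ± 46.3 in rapamycin cells against 1915 ± 277 in DMSO cells, -0.73 ± 0.09) and was higher in resistant than in DMSO cells (3236 ± 61.7, 0.76 ± 0.09). Dtd1, which removes D-amino acids from tRNA, rose in both comparisons (0.38 ± 0.09 and 1.56 ± 0.09). Prorsd1, a relative of the domain that clears wrongly charged tRNA, was lower in resistant than in DMSO cells (-0.63 ± 0.12). The 3 dim Farsa probe sets averaged 40.6 to 69.3 in sensitive rapamycin cells and 10.7 to 23.0 in DMSO cells, opposite in direction to the bright one at 734.3 ± 5.69 against 1019 ± 109.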
